A study of Mus musculus with 4 samples.

Results

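The genes described here are 10 genes of hepatic fatty acid synthesis, chosen by name from the 55488 genes in the deposited count tables. They are the regulators Srebf1, Mlxipl and Thrsp, the enzymes Acly, Acaca, Fasn and Me1 that lead to palmitate, and the elongases Elovl6 and Elovl3 and the desaturase Scd1 that modify it. They were taken by name, with earlier results of these data known, and no threshold on a measured value entered the choice. They were followed in single-cell RNA sequencing data from the livers of 4 mice, 1 mouse and 1 library for each genotype. The WT library came from a wildtype animal. In the YAPKO, TAZKO and DKO libraries, Cre recombinase driven by the albumin promoter had removed floxed Yap, floxed Taz or both. That promoter is active in hepatocytes (HCs) and biliary epithelial cells (BECs), so the other liver cells of these mice still carried intact alleles. None of the mice had been treated. The labels give neither the age, the sex nor the time of day of sampling for these 4 mice. HCs and non-parenchymal cells had been released by perfusion with collagenase, so each library holds the cells that survived that step. Because 1 mouse stands for each genotype, every difference below is a difference between libraries without a replicate check, and no test between genotypes was possible.

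The liver makes fatty acids from carbohydrate. Citrate leaves the mitochondria and is cleaved to acetyl-CoA, which is carboxylated to malonyl-CoA and built up to palmitate with NADPH from malic enzyme and the pentose phosphate pathway, and elongases and desaturases then shape the chains that are stored or exported as triglyceride. In HCs the pathway is set mainly by transcription, with SREBP-1c responding to insulin and ChREBP responding to carbohydrate, and it runs high after feeding and low during fasting.

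The promoters of the regulated enzymes carry short motifs that have been studied in this context, among them the CCAAT box bound by NF-Y, which works together with SREBP. The RefSeq promoter table for GRCm38.p6 gave 250 bases before and 50 bases after the transcription start for 12 promoters of 8 of the 10 genes. Scd1 and Elovl3 had no entry. The promoters of Fasn and Thrsp are shown because both genes had more than 1 CCAAT box and because their levels went in opposite directions in the TAZKO library. Both are on the minus strand, at chr11:120824498-120824797 for Fasn and chr7:97417501-97417800 for Thrsp, and capitals mark CCAAT on either strand. In Fasn the matches at bases 189 and 192 overlap.
Fasn: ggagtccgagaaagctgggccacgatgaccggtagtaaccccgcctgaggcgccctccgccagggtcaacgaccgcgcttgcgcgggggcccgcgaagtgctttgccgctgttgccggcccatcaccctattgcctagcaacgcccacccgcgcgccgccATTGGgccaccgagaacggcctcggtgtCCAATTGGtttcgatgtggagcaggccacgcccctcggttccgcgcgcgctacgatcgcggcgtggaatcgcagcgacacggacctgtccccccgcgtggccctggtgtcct
Thrsp: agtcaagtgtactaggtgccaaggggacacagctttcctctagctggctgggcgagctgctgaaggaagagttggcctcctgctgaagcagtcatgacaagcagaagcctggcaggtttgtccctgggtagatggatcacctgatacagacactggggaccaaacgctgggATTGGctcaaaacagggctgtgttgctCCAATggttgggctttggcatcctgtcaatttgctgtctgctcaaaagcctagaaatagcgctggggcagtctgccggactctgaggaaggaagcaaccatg

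CCAAT was present on either strand in 7 of the 12 promoters, which belong to 6 genes (Fasn, Acly, Srebf1, Mlxipl, Thrsp and Me1), and in 37.4% of the 32851 promoters in the table. The E-box CACGTG was present in 1 of the 12 promoters, that of Mlxipl, and in 7.15% of all promoters. The sterol regulatory element TCACNCCAC was also present only in Mlxipl, in a second promoter of that gene, and in 1.24% of all promoters. GGGCGG, the GC box, was present in 5 of the 12 promoters, which belong to 4 genes, and in 35.7% of all promoters. Each motif was searched on both strands, and a match describes these windows only.

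After filtering, 30362 cells remained, with between 6275 and 8638 per library. Cells in which Alb, Apoa1, Ttr and Apoc3 together made up at least 3% of the unique molecular identifiers (UMIs, each standing for 1 captured transcript) were taken as HCs. These were 2254 cells in WT, 1159 in YAPKO, 3112 in TAZKO and 2925 in DKO, and they held between 14371818 UMIs (TAZKO) and 31451371 UMIs (DKO). The median depth of an HC was 2166.5 UMIs in WT, 6457 in YAPKO, 1854.5 in TAZKO and 6475 in DKO. All 8 independent HC markers were detected in each library. Yap1 in HCs was at 21.2 CPM (UMIs of the gene for each 1000000 UMIs of the cells) in WT and 46.3 CPM in TAZKO, against 4.55 CPM in YAPKO and 4.67 CPM in DKO. Wwtr1, the gene of TAZ, was at 5.58 CPM in WT and 13.5 CPM in YAPKO, against 3.34 CPM in TAZKO and 2.89 CPM in DKO. The counted tags lie near the ends of transcripts and need not fall in the deleted exons. Pairs of libraries shared between 10 and 67 barcodes, and between 0 and 5 barcodes of HCs.

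Levels below are the summed UMIs of a gene in the HCs of a library, divided by all UMIs of the same cells, with an exact 95% Poisson interval in brackets. Pairs of libraries were compared by the log2 of their CPM ratio, again with an exact 95% interval. None of the intervals includes variation between mice, since only the error of counting enters them. The scale itself matters here. The median gene with at least 100 UMIs was 0.40 higher on the log2 scale in YAPKO than in WT, 0.61 higher in TAZKO and 0.46 higher in DKO. Major urinary protein transcripts took 11.3% of HC UMIs in WT, 5.79% in YAPKO, 2.65% in TAZKO and 4.86% in DKO, and the part of this share in the shift was not tested. Ratios are therefore also given after the median of all genes has been taken off.

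Summed over the 10 genes, the level in HCs was 3764 CPM in WT, 7487 CPM in YAPKO, 8314 CPM in TAZKO and 4240.0 CPM in DKO. Most of this sum was Scd1. The single knockouts were both well above WT, and DKO was close to WT.

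**Figure D1:**
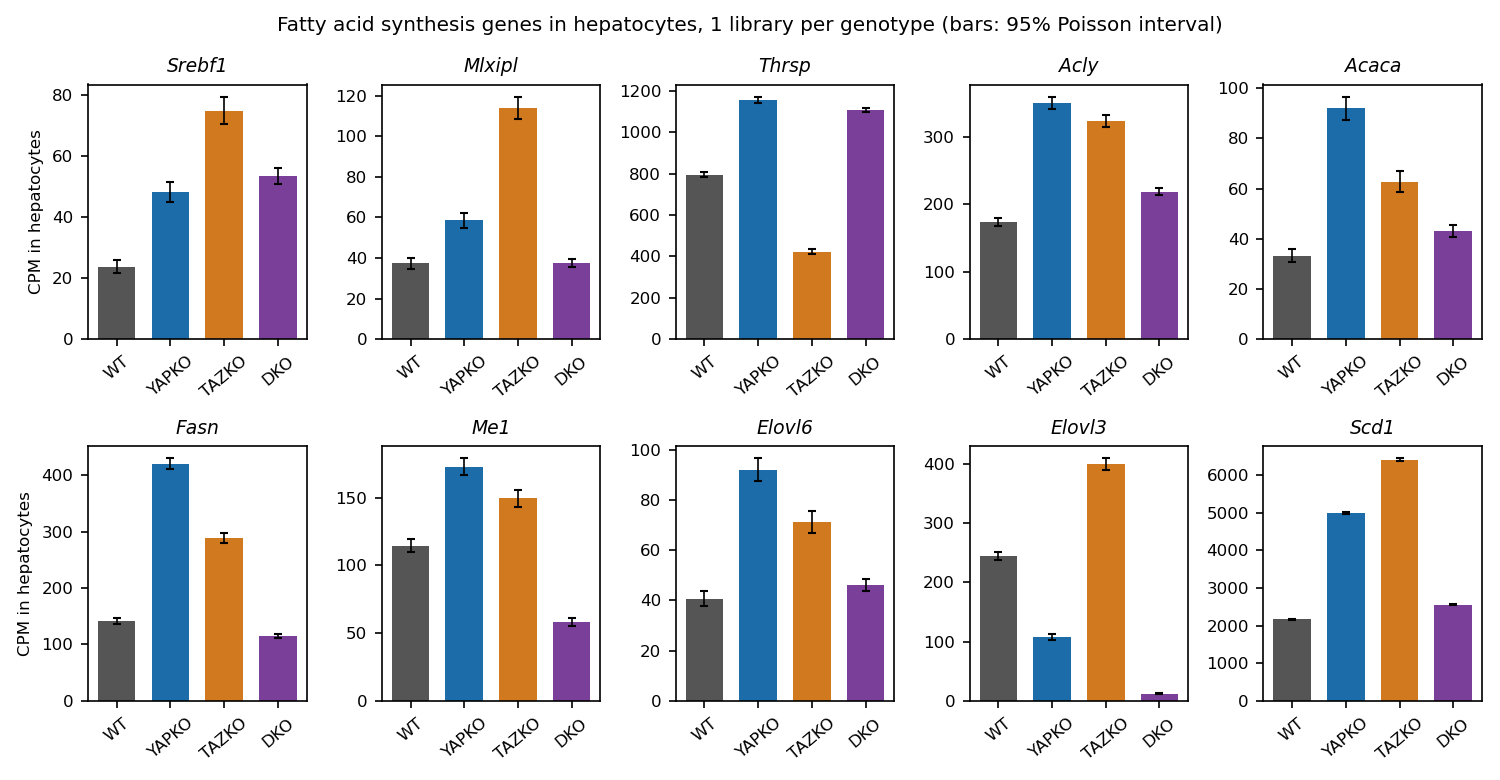
Level of each of the 10 genes in HCs (CPM, linear axis from 0) in the 4 libraries, with 95% Poisson intervals for counting error. Fasn, Acly, Acaca, Me1 and Elovl6 are highest in YAPKO, Srebf1, Mlxipl, Elovl3 and Scd1 are highest in TAZKO, and Elovl3 is at 11.8 CPM in DKO.

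Of the regulators, Srebf1 (chr11:60199089-60222581, GRCm38) encodes SREBP-1, the factor that drives the genes of fatty acid synthesis in response to insulin. The counts do not separate its isoforms. Srebf1 was at 23.7 CPM (21.5 to 26.0) in WT, 48.1 CPM (44.9 to 51.6) in YAPKO, 74.8 CPM (70.4 to 79.4) in TAZKO and 53.4 CPM (50.9 to 56.0) in DKO. It was the only one of the 10 genes at least 2-fold above WT in all 3 knockout libraries, with log2 ratios of 1.02 (0.86 to 1.19), 1.66 (1.5 to 1.82) and 1.17 (1.02 to 1.33). With the median of all genes taken off these became 0.62, 1.05 and 0.71, so only TAZKO stayed past 2-fold.

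Mlxipl (chr5:135089890-135138382) encodes ChREBP, the factor that responds to carbohydrate. Its level was 37.4 CPM (34.7 to 40.2) in WT, 58.6 CPM (55.0 to 62.4) in YAPKO, 114 CPM (108 to 119) in TAZKO and 37.5 CPM (35.4 to 39.8) in DKO. TAZKO stood apart, at 1.61 (1.48 to 1.73) on the log2 scale above WT. DKO and WT differed by less than the counting error on the CPM scale, with a ratio of 0.01 (-0.13 to 0.14), and DKO was at -0.45 with the median of all genes taken off.

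Thrsp (chr7:97412938-97417730), also called Spot 14, encodes a small protein that follows lipogenic activity and is induced by thyroid hormone and carbohydrate. It was at 795 CPM (783 to 808) in WT, 1155 CPM (1139 to 1171) in YAPKO, 423 CPM (412 to 434) in TAZKO and 1106 CPM (1095 to 1118) in DKO. Thrsp was thus lowest in the library in which Srebf1 and Mlxipl were highest. In TAZKO it stood, at -0.91 (-0.95 to -0.87) against WT, or -1.52 with the median of all genes taken off.

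Of the enzymes up to palmitate, Acly (chr11:100476353-100528000) cleaves citrate to acetyl-CoA. It was at 174 CPM in WT, 351 CPM in YAPKO, 323 CPM in TAZKO and 219 CPM in DKO. Acaca (chr11:84129672-84401651) carboxylates acetyl-CoA in the step that commits it to fatty acids. It was at 33.2 CPM in WT, 92.0 CPM in YAPKO, 62.7 CPM in TAZKO and 43.0 CPM in DKO. From high to low the order of CPM was YAPKO, TAZKO, DKO and WT for both enzymes. With the median taken off, DKO fell below WT, at -0.13 for Acly and -0.09 for Acaca, while YAPKO and TAZKO stayed above it. In CPM their log2 ratios for YAPKO were 1.01 (0.95 to 1.08) and 1.47 (1.34 to 1.61). Over 12 alternatives the DKO ratio of Acly ran from -0.13 to 1.54 and was at least 2-fold higher in 3. That of Acaca ran from -0.09 to 0.44.

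Fasn (chr11:120805846-120824547), the synthase that builds palmitate, was at 141 CPM (135 to 146) in WT, 421 CPM (411 to 431) in YAPKO, 288 CPM (279.6 to 297) in TAZKO and 115 CPM (111 to 119) in DKO. It was highest in YAPKO, where the log2 ratio was 1.58 (1.52 to 1.65), and DKO was at -0.29 (-0.36 to -0.22) against WT. The sign of that last ratio held in 9 of 12 alternatives, which ran from -0.75 to 0.39, and of 3 ranges of depth DKO was below WT only in the deepest, HCs with at least 5000 UMIs. The difference between TAZKO and WT, 1.04 (0.97 to 1.11), became 0.43 with the median of all genes taken off. Me1 (chr9:86581371-86695953), which supplies NADPH, was at 114 CPM in WT, 173 CPM in YAPKO, 149 CPM in TAZKO and 58.2 CPM in DKO. DKO was below WT, at -0.98 (-1.07 to -0.89), or -1.43 with the median taken off. The single knockouts were above WT on the CPM scale, but TAZKO went from 0.39 to -0.22 with the median taken off.

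Of the genes that modify the chain, Elovl6 (chr3:129532355-129638495) extends palmitate to stearate. It was at 40.7 CPM in WT, 92.0 CPM in YAPKO, 71.2 CPM in TAZKO and 46.0 CPM in DKO, with YAPKO at 1.18 (1.05 to 1.30) above WT on the log2 scale. Scd1 (chr19:44394455-44407879) places the double bond that makes oleate and palmitoleate. It was at 2160.5 CPM in WT, 4990.0 CPM in YAPKO, 6408 CPM in TAZKO and 2550.2 CPM in DKO. Its log2 ratios to WT were 1.21 (1.19 to 1.22), 1.57 (1.55 to 1.59) and 0.24 (0.22 to 0.26), and with the median of all genes taken off they were 0.81, 0.96 and -0.22, so DKO changed sign.

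Elovl3 (chr19:46131897-46135694) extends very long chains, is expressed at a higher level in male than in female mouse liver, and follows the circadian clock. It was at 245 CPM (238 to 252) in WT, 107 CPM (102 to 112) in YAPKO, 399 CPM (389 to 409.7) in TAZKO and 11.8 CPM (10.6 to 13.03) in DKO. DKO was 20.8-fold below WT, a log2 ratio of -4.38 (-4.54 to -4.23), and YAPKO was 2.29-fold below WT. YAPKO lay below WT for Elovl3 alone among the 10 genes.

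Clock genes and genes with a sex difference were set beside Elovl3. Of 14 clock genes, 13 had at least 100 UMIs, and 9 of these were at least 2-fold higher and 1 lower in DKO than in WT, where 12.3% and 1.72% of all genes were. Dbp went from 5.94 CPM in WT to 132 CPM in DKO, Per3 from 0.886 to 15.9 CPM and Arntl from 8.34 to 1.14 CPM. In YAPKO and TAZKO, 4 of 11 clock genes were at least 2-fold higher, where 5.49% and 21.3% of all genes were, and 0 were lower. With the median of all genes taken off, 1 clock gene was higher in YAPKO, 1 in TAZKO and 7 in DKO. Lower were 0, 1 and 2. Of all genes, 1.62%, 3.73% and 4.88% were then higher and 1.41%, 5.52% and 3.8% lower. Among 6 measured genes known for a sex difference in mouse liver, Elovl3 included, 3 were at least 2-fold lower in DKO, where 1.72% of all genes were, and the others of these 3 were Hsd3b5 (42.0 to 6.26 CPM) and Cyp7b1 (388 to 67.2 CPM). In YAPKO 2 of the 6 were lower, Elovl3 and Hsd3b5 (15.1 CPM), where 0.601% of all genes were. In TAZKO 1 was lower, Mup20, at 7018 CPM against 74485 CPM in WT, where 1.18% of all genes were. With the median taken off, 6 of the 6 were lower in DKO, 4 in YAPKO and 3 in TAZKO. Of all genes, 3.8%, 1.41% and 5.52% were lower on that scale. The Y-linked gene Ddx3y was at 49.6 to 111 CPM and Eif2s3y at 38.2 to 49.2 CPM in the HCs of the 4 libraries, while Xist had between 0 and 5 UMIs in each. The clock and the sex-biased genes were not tested for a part in the Elovl3 difference.

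Against WT, the YAPKO library had 6 of the 10 genes at least 2-fold higher (Scd1, Fasn, Elovl6, Acaca, Acly and Srebf1), where 5.49% of all 9313 genes with at least 100 UMIs were, and 1 gene at least 2-fold lower (Elovl3), where 0.601% of all genes were. The median log2 ratio was 1.02 over the 10 genes and 0.40 over all genes. With the median of all genes taken off, 2 genes stayed at least 2-fold higher (Fasn and Acaca), against 1.62% of all genes, and Elovl3 stayed lower, against 1.41%. Acly and Srebf1 lay just past the 2-fold line, at 1.01 and 1.02.

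The TAZKO library had 4 genes at least 2-fold higher than WT (Scd1, Fasn, Srebf1 and Mlxipl) and 0 at least 2-fold lower. Of all genes, 21.3% were at least 2-fold higher and 1.18% lower, so the share of the 10 genes has to be read against a library in which many genes were higher. The median log2 ratio was 0.91 over the 10 genes and 0.61 over all genes. With the median taken off, Srebf1 and Mlxipl stayed higher, where 3.73% of all genes were, and Thrsp was lower, where 5.52% were. More of the 10 genes were higher with other cell limits or weights of cells, as given in the section on processing, but the share of all genes was not recomputed there. Over 12 alternatives Fasn was at least 2-fold higher in 7 and Thrsp at least 2-fold lower in 5. Markers of some other classes were more abundant in the HCs of TAZKO and those of others less. The 10 B cell markers summed to 172 CPM there and to 54.4 CPM in WT, and the 12 endothelial markers to 344 and 170.3 CPM. Neutrophil markers went the other way, with 162 CPM in TAZKO and 372 CPM in WT. So did dendritic cell markers, with 429 and 678 CPM, and BEC markers, with 1409 and 1807 CPM. The median HC held 0.122% of its UMIs from BEC markers in TAZKO and 0.147% in WT. For dendritic cell markers it held 0.0293% and 0.0700%, and for endothelial and B cell markers 0% in both. Whether HCs themselves express some genes of these lists was not tested, so the sums are no plain measure of RNA from other classes. With HCs left out that had 0.5% or more of their UMIs from the markers of any other class, 4 genes were again at least 2-fold higher. This filter used the same marker lists, and the share of all genes was not recomputed for it.

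The DKO library had 1 gene at least 2-fold higher than WT (Srebf1), where 12.3% of all genes were, and 1 gene at least 2-fold lower (Elovl3), where 1.72% were. The median log2 ratio of 0.21 over the 10 genes lay below the 0.46 of all genes. With the median taken off, 0 genes were at least 2-fold higher, against 4.88% of all genes, and Elovl3 and Me1 were lower, against 3.8%.

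**Figure D2:**
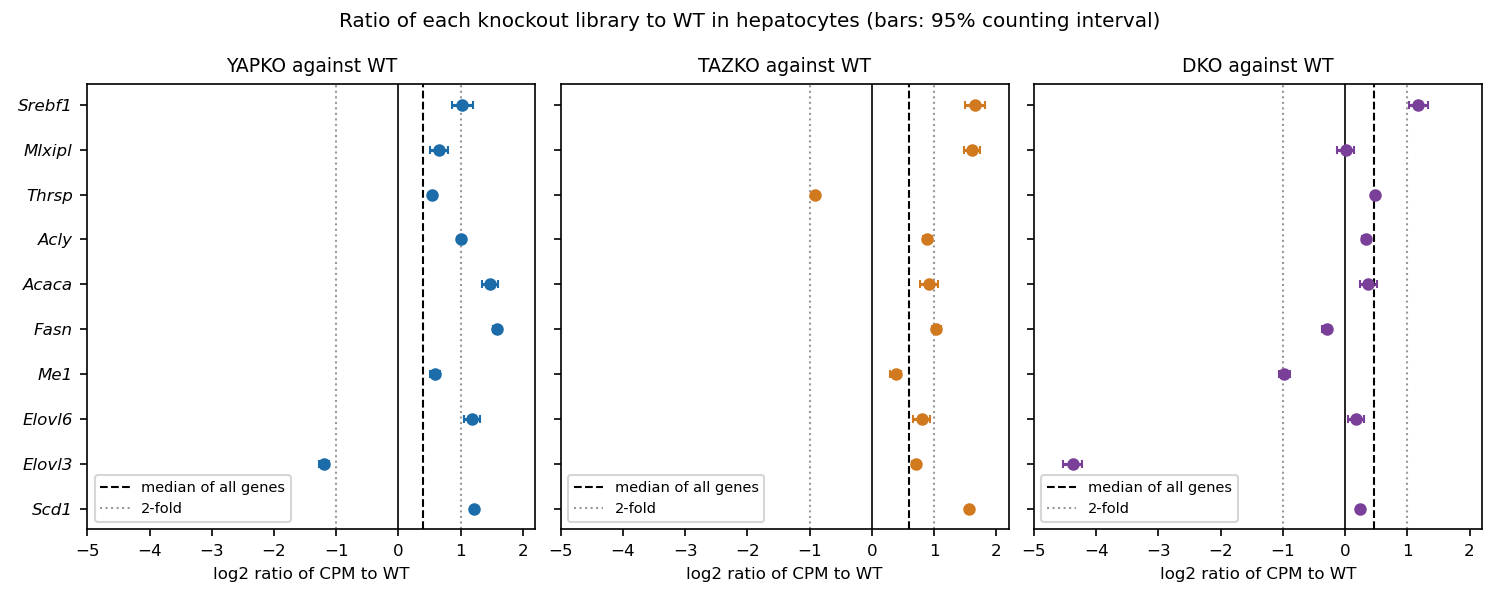
Log2 ratio of CPM in HCs of YAPKO, TAZKO and DKO to WT for each gene, with 95% counting intervals, the 2-fold lines and the median of all genes (0.40, 0.61 and 0.46). In YAPKO 9 of the 10 points lie right of the median of all genes, and in DKO Srebf1, Thrsp and no other gene do.

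DKO was also set directly against each single knockout, a comparison added after the levels had been seen. Against YAPKO, 5 genes were at least 2-fold lower in DKO (Fasn, Elovl3, Elovl6, Acaca and Me1), where 2.73% of all genes were, and 0 were higher, where 3.8% were. Scd1 missed the line, at -0.97 (-0.98 to -0.95). The median over the 10 genes was -0.98, against 0.07 over all genes. Against TAZKO, 5 genes were at least 2-fold lower in DKO (Scd1, Fasn, Elovl3, Mlxipl and Me1), where 8.01% of all genes were, and Thrsp was higher at 1.39 (1.35 to 1.43), where 5.94% were. Srebf1 was within 2-fold in both, at 0.15 (0.03 to 0.27) against YAPKO and -0.49 (-0.60 to -0.37) against TAZKO. With the median taken off, 6 genes were lower in DKO than in YAPKO, Scd1 among them, against 3.09% of all genes, and 0 were higher, against 3.24%. Against TAZKO the same 5 genes were lower, where 5.59% of all genes were, and Thrsp was higher, where 8.72% were.

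The differences were not spread evenly over HCs. Among HCs with at least 2000 UMIs, the median cell held Scd1 at 1089 CPM in WT, 1996 CPM in YAPKO, 6828 CPM in TAZKO and 948 CPM in DKO. In TAZKO the middle of the cells, from the 25th to the 75th percentile, lay between 4910.4 and 8494 CPM, and 0 of 1433 cells lacked an Scd1 UMI. In YAPKO the same range ran from 705 to 5107 CPM and 5.62% of 1015 cells had none. An Scd1 UMI was also found in 93.8% of B cells of TAZKO and 63.6% of those of YAPKO, so detection alone does not set HCs apart. The 10th percentile of HCs was at 3192 CPM in TAZKO and 260 CPM in YAPKO. By these levels, high Scd1 was shared by nearly all HCs of TAZKO and carried by some HCs of YAPKO. For Thrsp the median cell was at 472 CPM in WT, 682 CPM in YAPKO, 263 CPM in TAZKO and 1061 CPM in DKO.

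Depth separated these cells as well, in a split made after the data had been seen. In HCs under 2000 UMIs, Scd1 was at 1211 CPM in WT, 1941 CPM in YAPKO, 8669.6 CPM in TAZKO and 1533 CPM in DKO. With 2000 to under 5000 UMIs it was at 1256, 2003, 7258 and 1249 CPM in the same order, and with at least 5000 UMIs at 2365, 5251, 5628 and 2700.5 CPM. Scd1 was therefore highest in the deepest range of WT, YAPKO and DKO, with a lower middle range in DKO, and lowest in the deepest range of TAZKO. Fasn had the same form in WT, with 56.1 CPM under 2000 UMIs and 159.8 CPM at 5000 or more, and in YAPKO, with 182 and 444 CPM. In DKO it was at 84.0, 58.8 and 121 CPM from the shallowest to the deepest range, beside 56.1, 52.3 and 159.8 CPM in WT, so DKO was above WT in the shallower ranges and below it in the deepest, while TAZKO changed little, with 267 and 299 CPM. Srebf1 went from 7.83 to 27.2 CPM in WT and from 73.6 to 76.6 CPM in TAZKO. Elovl3 went the other way in all 4 libraries, for example from 376 to 215 CPM in WT and from 29.4 to 11.3 CPM in DKO. HCs under 2000 UMIs were 41.5% of HCs in WT, 12.4% in YAPKO, 54.0% in TAZKO and 11.4% in DKO, and they held 7.99%, 1.26%, 15.8% and 1.51% of the HC UMIs. What sets the depth of a cell was not tested.

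**Figure D3:**
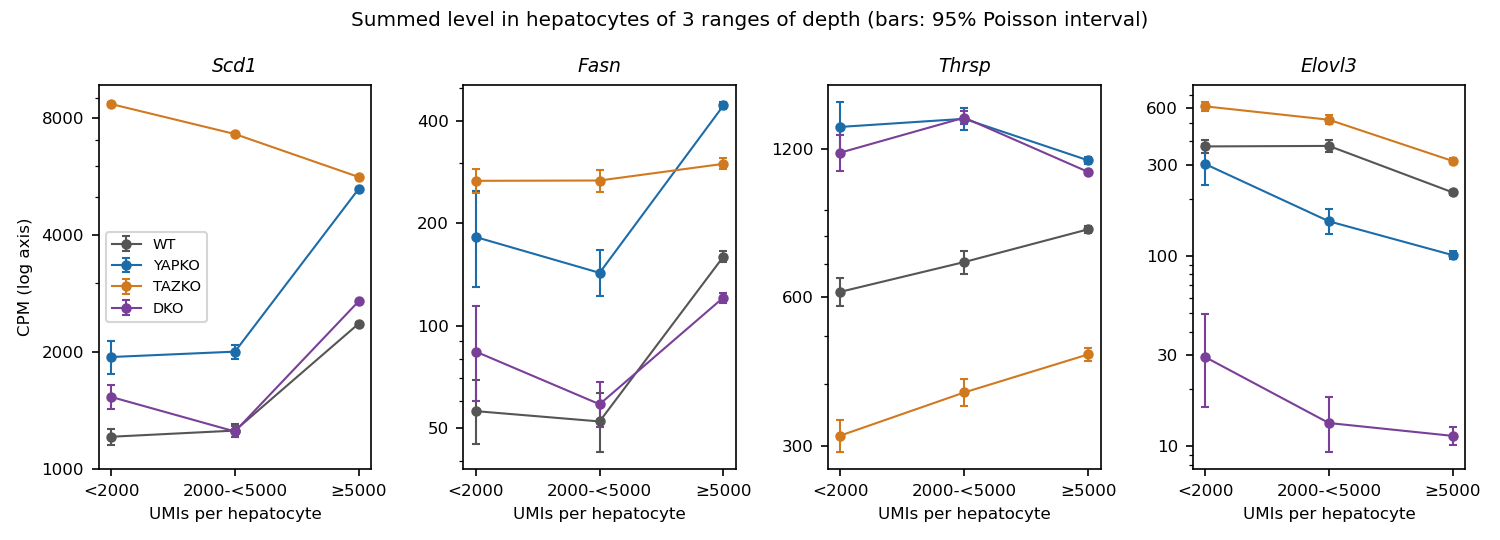
Level of Scd1, Fasn, Thrsp and Elovl3 (CPM, log axis) in HCs with under 2000, 2000 to under 5000 and at least 5000 UMIs, 1 line per library, with 95% Poisson intervals. Scd1 is highest in the deepest cells of WT, YAPKO and DKO and descends from 8669.6 to 5628 CPM in TAZKO, and Elovl3 is lower in the deepest cells of each library.

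To compare shares of cells at equal depth, HCs were thinned to 1000 UMIs each, which left out between 1 (WT) and 78 (TAZKO) shallower cells. A Scd1 UMI was then found in 66.6% of HCs in WT, 73.6% in YAPKO, 99.1% in TAZKO and 62.2% in DKO, against 89.8%, 92.5%, 99.9% and 90.3% before thinning. Elovl3 was found in 28.8%, 10.8%, 42.1% and 1.21% in the same order, and Thrsp in 45.0%, 53.8%, 24.98% and 66.2%. Before thinning these shares were 57.7%, 34.3%, 66.9% and 7.56% for Elovl3 and 73.9%, 88.9%, 47.7% and 94.7% for Thrsp. In B cells, thinning to the same depth left Scd1 in 25.2%, 32.0%, 67.5% and 20.4% of cells, Thrsp in 4.57%, 4.55%, 1.83% and 2.55%, and Elovl3 in 5.05%, 1.14% and 4.04% of cells in WT, YAPKO and TAZKO. In DKO 0 of 314 thinned B cells had an Elovl3 UMI. A count of 3 cells would be 0.955%, and the exact 95% upper limit for the share with a UMI was 1.17%. B cells held Scd1 and Srebf1 above the level that HC RNA alone would give in 4 of 4 libraries and Elovl3 in 2, by the estimate described below for the other classes, so their shares are no plain background for these genes. Thrsp was above that level in B cells of 0 of 4 libraries. For Srebf1 the share in HCs of WT, 0.976%, did not exceed that in B cells of WT, 1.44%, while in TAZKO it was 7.05% against 2.39%. The median depth before thinning was 2919.5 UMIs in B cells of WT, 2882.5 in YAPKO, 2799 in TAZKO and 2146 in DKO.

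Of 20 other enzymes and carriers of fatty acid synthesis, 19 had at least 100 UMIs. In YAPKO 1 was at least 2-fold higher (Scd2, 5.79 to 15.1 CPM) and 0 lower, where 5.49% and 0.601% of all genes were. In TAZKO 3 were higher (Mid1ip1, a partner of Thrsp, Acss2, which makes acetyl-CoA from acetate, and Elovl5) and Scd2 was lower, where 21.3% and 1.18% of all genes were, so the higher genes were no more frequent than among all genes. In DKO 0 were higher, where 12.3% of all genes were. Acacb, the mitochondrial acetyl-CoA carboxylase, was lower in DKO, from 26.3 to 9.79 CPM, where 1.72% of all genes were. With the median taken off, the higher genes numbered 0 in YAPKO, 1 in TAZKO and 0 in DKO, and the lower 0, 1 and 3. Of all genes, 1.62%, 3.73% and 4.88% were then higher and 1.41%, 5.52% and 3.8% lower. The median log2 ratios of these 19 enzymes and carriers, 0.56, 0.56 and 0.31, compare with 0.40, 0.61 and 0.46 for all genes.

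Among 20 other regulators, 1 of 18 measured was at least 2-fold higher in YAPKO, 4 of 18 in TAZKO and 2 of 19 in DKO, with 0 lower in each. These shares are near the 5.49%, 21.3% and 12.3% of all genes. Ppargc1b, a coactivator of SREBP-1, went from 4.85 CPM in WT to 16.6 CPM in YAPKO and 21.6 CPM in DKO. The insulin receptor gene Insr went from 42.8 to 90.9 CPM and its substrate Irs1 from 5.27 to 22.1 CPM in TAZKO, and Irs2 from 16.5 to 47.0 CPM in DKO. The 20 genes of sterol synthesis and uptake, which SREBP-2 controls, were all measured and 0 were past 2-fold in any of the 3 libraries, with medians of 0.29, 0.20 and 0.06. With the median of all genes taken off, 1, 1 and 2 of the other regulators were higher in YAPKO, TAZKO and DKO. Lower were 0, 0 and 1 of these regulators, and 1 sterol gene was lower in TAZKO.

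Of 13 measured genes of triglyceride storage, 3 were at least 2-fold higher in YAPKO (Lpin1, Cd36 and Plin5), 0 in TAZKO and 2 in DKO (Dgat2 and Lpin1), beside 5.49%, 21.3% and 12.3% of all genes. The count in DKO is near that share and the count in TAZKO below it. With the median taken off, 1 was higher in YAPKO and 0 in TAZKO and DKO, where 1.62%, 3.73% and 4.88% of all genes were. Lower were 0, 1 and 3, where 1.41%, 5.52% and 3.8% of all genes were. Lpin1, a phosphatidate phosphatase, went from 157 CPM in WT to 468 CPM in YAPKO and 328 CPM in DKO. Of 10 genes of carbohydrate handling, several of them ChREBP targets, 1 was at least 2-fold higher in YAPKO (Arrdc4), 2 in TAZKO (Arrdc4 and Tkfc) and 2 in DKO (Arrdc4 and Slc2a2), beside the same shares of all genes. Txnip was lower in YAPKO, from 71.8 to 34.0 CPM, where 0.601% of all genes were. In DKO Txnip was at 38.0 CPM, a log2 ratio of -0.92 to WT. With the median taken off, 0 of the 10 were higher in YAPKO and TAZKO and 1 in DKO. Lower were 1, 1 and 2, beside the same shares of all genes on that scale. Of the genes of fasting and fatty acid oxidation, 0 of 13 were at least 2-fold higher in YAPKO, 4 of 15 in TAZKO and 2 of 16 in DKO. Beside them stand 5.49%, 21.3% and 12.3% of all genes, and the counts in TAZKO and DKO are near these shares. At least 2-fold lower were 1, 1 and 2, where 0.601%, 1.18% and 1.72% of all genes were. With the median taken off, 0, 3 and 2 were higher and 2 in each library were lower. Cyp4a14 was at 1.20 CPM in WT, 21.7 CPM in TAZKO and 51.3 CPM in DKO, while Fgf21 went from 5.16 to 2.48, 2.02 and 0.350 CPM in YAPKO, TAZKO and DKO. Feeding before sampling is not given in the labels, and its part in the levels of these genes was not tested.

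Along the lobule, HCs were split within each library by whether the summed pericentral or the summed periportal markers were higher. Only 22 HCs in WT, 90 in YAPKO, 212 in TAZKO and 53 in DKO had the pericentral markers higher, and Cyp2e1, a pericentral enzyme and itself one of the sorting markers, was at 3549.9 CPM in these cells of WT and 40.8 CPM in the periportal cells. Elovl3 was higher in the pericentral cells of all 4 libraries. Its levels were 632 against 236 CPM in WT, 762 against 76.4 CPM in YAPKO, 713 against 376 CPM in TAZKO and 123 against 8.78 CPM in DKO. The log2 ratio was thus larger in YAPKO, 3.32 (3.17 to 3.46), and DKO, 3.80 (3.46 to 4.14), than in WT, 1.42 (1.24 to 1.60), and TAZKO, 0.92 (0.80 to 1.04). The sorting markers themselves, whose contrast the split sets, lay closer together in TAZKO, where Cyp2e1 was at 3906 CPM in pericentral and 558 CPM in periportal cells and the periportal enzyme Cyp2f2 at 333 against 1604 CPM, beside 7.21 against 1344 CPM for Cyp2f2 in WT. The part of this in the TAZKO ratio was not tested. Depth also differed between the zones, with a median of 5779.5 UMIs in pericentral and 2166 UMIs in periportal cells of WT, 2751 and 6906 in YAPKO, 1410.5 and 1970 in TAZKO, and 13263 and 6454 in DKO. In HCs with at least 2000 UMIs the Elovl3 ratios were 1.46 in WT, 3.32 in YAPKO, 1.09 in TAZKO and 3.83 in DKO.

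Me1 and Scd1 were also higher in pericentral cells in each library, Me1 by 0.58 (TAZKO) to 1.36 (DKO) and Scd1 by 0.21 (YAPKO and TAZKO) to 1.35 (DKO) on the log2 scale. Thrsp was lower there in each library, from -0.59 in YAPKO to -0.15 in DKO. Acly was lower in pericentral cells of WT, YAPKO and TAZKO, with the largest difference in YAPKO (105 against 362 CPM), and level in DKO at 0.03 (-0.19 to 0.24). Fasn was lower in pericentral cells of YAPKO (-0.98) and TAZKO (-0.44) and higher in those of DKO (0.64). The pericentral group was small, and its markers summed over all HCs to 385 CPM in WT, 908 CPM in YAPKO, 1954 CPM in TAZKO and 1009.8 CPM in DKO. With periportal HCs alone, 6 genes were again at least 2-fold higher than WT in YAPKO and 4 in TAZKO, and the Elovl3 ratios were -1.63 in YAPKO and -4.75 in DKO. These cells were 2229 of 2254 HCs in WT, 1067 of 1159 in YAPKO, 2777 of 3112 in TAZKO and 2871 of 2925 in DKO. The subset is thus most of the HCs of each library, and its counts had little room to differ. The share of all genes past 2-fold was not recomputed for it.

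**Figure D4:**
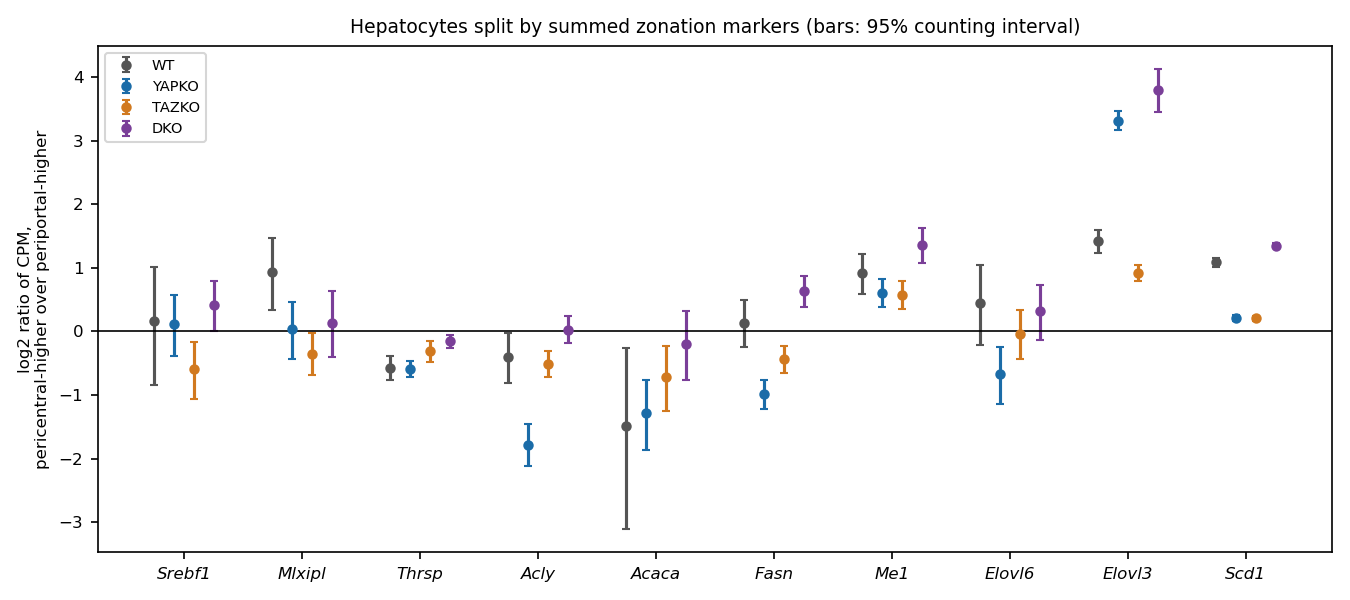
Log2 ratio of CPM between HCs with higher pericentral and HCs with higher periportal markers, for each gene and library, with 95% counting intervals. Elovl3, Me1 and Scd1 lie above 0 and Thrsp below 0 in all 4 libraries, and Elovl3 is highest in YAPKO (3.32) and DKO (3.80).

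Outside HCs, cells were sorted into 9 classes by the share of UMIs from marker genes. Because HCs release RNA into the suspension, each level was set beside the level that HC RNA alone would give, estimated from Alb, Apoa1, Ttr and Apoc3 in the same cells. The estimate assumes that free RNA has the make-up of the HCs. Srebf1, Acaca and Acly lay above this level in endothelial cells (ECs), Kupffer cells (KCs), hepatic stellate cells, dendritic cells, T and NK cells, and monocytes and macrophages of all 4 libraries. In KCs, Srebf1 was at 22.6 CPM in WT, 20.8 CPM in YAPKO, 37.8 CPM in TAZKO and 19.4 CPM in DKO, while HC RNA would have given at most 4.04 CPM. Acly in KCs was at 140.1 CPM in WT, 104 CPM in YAPKO, 196 CPM in TAZKO and 84.4 CPM in DKO. These cells keep intact Yap and Taz in all 4 mice.

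The remaining genes were narrower. Fasn lay above the HC level in KCs and dendritic cells of all 4 libraries, with 24.9, 24.1, 53.5 and 23.1 CPM in dendritic cells of WT, YAPKO, TAZKO and DKO. Elovl6 did so in T and NK cells (16.5, 16.1, 22.9 and 13.9 CPM) and in dendritic cells. Me1 did so in hepatic stellate cells, with 47.3, 41.8, 29.2 and 34.1 CPM from between 23 and 63 cells a library. Thrsp did so in ECs, with 61.3, 35.7, 39.3 and 55.0 CPM against at most 49.8, 20.4, 34.7 and 28.1 CPM. Scd1 did so in B cells, with 291, 283, 1098 and 225 CPM, and in KCs, with 146, 111, 645 and 100.1 CPM. Elovl3 and Mlxipl lay above the HC level in all 4 libraries in none of the 9 classes.

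Scd1 in TAZKO was above the level from HC RNA in 8 of the 9 classes, all but BECs, and Scd1 was the highest of the 4 libraries in each of these 8. In ECs it was at 693 CPM, where HC RNA would have given between 240 and 525 CPM, against 104 CPM in WT. Scd1 was also at its highest in the HCs of TAZKO, and the part of free RNA in these values was not tested. BECs were too few to compare, with 30 cells in WT, 29 in YAPKO, 13 in TAZKO and 6 in DKO.

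**Figure D5:**
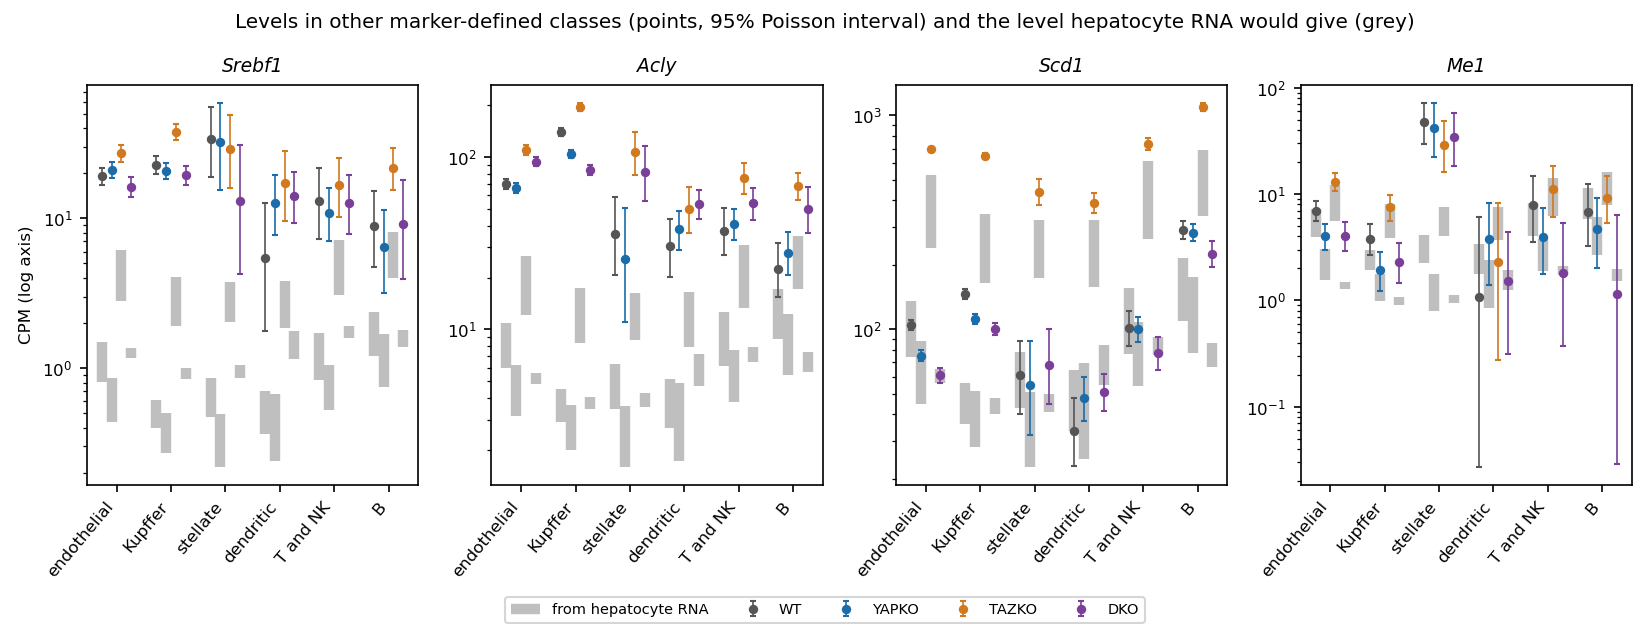
Level of Srebf1, Acly, Scd1 and Me1 (CPM, log axis) in 6 classes other than HCs, 1 point per library with its 95% Poisson interval, and in grey the range of levels that HC RNA alone would give. Srebf1 lies above the grey range in every class and library shown, Acly in all but the B cells of WT, and Me1 stands clear of it in stellate cells (29.2 to 47.3 CPM).

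Across single HCs thinned to 1000 UMIs, the genes whose counts went most with the mean of the 10 genes were Alb, Fga, Fgg, Serpina3k and Acsl1. The lowest of their correlations over the 4 libraries was between 0.09 and 0.14, and those of the 10 genes themselves were between -0.10 and 0.05. The libraries differed. Correlations of the 10 genes ran from -0.05 to 0.19 in WT, -0.05 to 0.41 in YAPKO, -0.02 to 0.07 in TAZKO and -0.10 to 0.19 in DKO. Highest in YAPKO were Scd1 at 0.41 and Fasn at 0.40. There Fga was at 0.57, and the median over 1405 genes was -0.03. At this depth such values are no more than a description of sparse counts in cells that share a library.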

How the data were processed

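Livers of 4 mice, 1 for each genotype, had been profiled with the 10x Chromium method that counts tags at the 3′ ends of transcripts. Cell Ranger was used by the authors for alignment (mm10), and the deposited files are its filtered matrices of raw UMI counts; the processing notes name version 6.0.1 and the file headers version 4.0.0. Barcodes were kept if 500 to 6000 genes were detected and mitochondrial UMIs did not exceed 10%. HCs were cells with at least 3% of UMIs from Alb, Apoa1, Ttr and Apoc3. Other classes needed at least 1% of UMIs from their own markers, with the next class under 50% of that and under 3% from the HC genes. These are ranges of a score and not clusters, and no doublet caller was run. The thresholds of the other classes were set after seeing the data.

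Counts were summed per library and class and scaled to CPM, with exact 95% Poisson intervals, and ratios had exact conditional binomial intervals. Genes with at least 100 UMIs over both libraries were compared, and 2-fold was the line. With 1 library per genotype no test was run. The 10 genes and all gene lists were chosen with earlier results of these data known. All 10 genes are named. Of each other list, at most the 4 measured genes with the greatest absolute log2 ratio to WT were named for a comparison, and the 10 genes most alike by correlation across thinned HCs were considered, of which 5 are named. The intervals were tested on simulated data for 7495 genes and covered the true ratio for 94.9% of them. Gene coordinates are from GENCODE (GRCm38) and promoters from RefSeq. Python 3.11.15, numpy 2.4.6, scipy 1.17.1, pandas 2.3.3 and matplotlib 3.10.9 were used. Alternatives concerned the cell filters, the HC threshold, the scale, the weight of each cell and the depth.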

Additional observations from a re-analysis of the deposited data

Results flagged for a closer look

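Of the 10 genes, 8 were higher in YAPKO than in WT, both with intact Taz, and lower in DKO than in TAZKO, both with Taz removed. These were all but Elovl3 and Thrsp, and 53.4% of all genes measured in both comparisons had these signs. The Taz ratios had the same signs, with TAZKO above WT and DKO below YAPKO, for 8 of the 10 genes, all but Srebf1 and Thrsp, and for 38.3% of all genes. With the median of all genes taken off, the numbers were 8 and 7, where 27.0% and 28.4% of all genes had these signs. At least 2-fold in both directions were Scd1 and Fasn for Yap, where 0.324% of all genes were, and Fasn for Taz, where 0.407% were. With the median taken off, these became Fasn for Yap and 0 genes for Taz. Scd1 had a log2 ratio of 1.21 for YAPKO against WT and of -1.33 for DKO against TAZKO, and Fasn had 1.58 and -1.33. Fasn also had 1.04 for TAZKO against WT and -1.87 for DKO against YAPKO, and Scd1 just missed the line there, at 1.57 and -0.97. With the median taken off, 1.21 became 0.81 for Scd1 and 1.04 became 0.43 for Fasn. Each ratio rests on 1 library per genotype, the Yap and the Taz ratios come from the same 4 libraries and are not independent of each other, and the difference between the ratios was not tested.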

How the results depend on the processing

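Under 12 alternatives, 2 of them chosen after seeing the data (periportal HCs alone, and HCs with at least 5000 UMIs), 344 of 360 recomputed ratios to WT kept their sign, and no gene past 2-fold changed direction. Elovl3 was at least 2-fold lower in YAPKO (-2.15 to -1.06) and DKO (-4.84 to -4.25), Fasn higher in YAPKO (1.18 to 1.96), and Srebf1 and Mlxipl higher in TAZKO (1.05 to 3.11 and 1.00 to 2.85) in 12 of 12. The counts of genes past 2-fold moved more. With the median of all genes taken off, the higher genes numbered 2 in YAPKO, 2 in TAZKO and 0 in DKO, and the lower genes 1 in TAZKO and 2 in DKO. With a total that left out mitochondrial genes and the 50 most abundant genes, the higher genes numbered 2 in YAPKO and 0 in DKO, and the lower genes 1 in TAZKO and 2 in DKO. With limits of 500 and 6000 read as UMIs, the higher genes were 8 in TAZKO and 3 in DKO. With each cell weighted alike, or thinned to 1000 UMIs, the higher genes were 7 in TAZKO and 2 in DKO and the lower genes 1 in TAZKO. With HCs at 10%, the lower genes were 1 in TAZKO and 2 in DKO. HCs with at least 2000 UMIs, with at least 5000 UMIs or with higher periportal markers gave 2 lower genes in DKO. The 6 higher genes of YAPKO became 4 in HCs with at least 2000 or at least 5000 UMIs and 8 with thinning. The cause was not tested. The share of all genes past 2-fold was not recomputed for the other cell sets, totals and weights. Counts under those settings therefore do not show whether the 10 genes differ from all genes. With genes of at least 20 UMIs, the share of all genes at least 2-fold higher was 8.53% in YAPKO, 27.4% in TAZKO and 16.1% in DKO, and lower 1.52%, 1.92% and 2.73%. No paired analysis was possible because each genotype has 1 library.

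Genotype cannot be told apart from mouse, library, depth or time of sampling. Intervals cover counting error only, and a low gene such as Srebf1 rests on few UMIs in each cell.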
